A study of Homo sapiens with 9 samples.

Results

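Genes that mark gastric and intestinal epithelium were followed in AGS cells, an established line from a human gastric adenocarcinoma, after stable loss of HIF-1α. The 10 genes were PGC, REG4, CLDN18, VIL1, GATA4, GATA6, HNF4A, SOX2, CDX1 and CDX2, whose probes were found by gene symbol. Every array probe whose platform annotation carries one of these symbols was used, which gave 13 probes for 9 of the 10 genes, out of 20072 named genes in the series. No probe of HNF4A, a nuclear receptor of gut and liver epithelium, was identified in the annotation used, and this gene was not analysed here. HIF- cells were AGS cells stably transduced by lentivirus with a short hairpin RNA against HIF1A, and SCR cells were AGS cells that carried a scrambled hairpin in the same way. Each group had 3 replicates. Each result therefore concerns 1 cell line with a stable knock-down and 1 hairpin per group. RNA was hybridized to Illumina BeadChips, with 1 HIF- and 1 SCR array in each of replicates 1 and 2 on one chip version and 3 HIF- and 2 SCR technical arrays of replicate 3 on another, the HumanHT-12 chip.

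Stomach and intestine arise from the same endodermal tube, and the identity of their epithelium is kept by transcription factors. SOX2 is a factor of the foregut and stomach, CDX1 and CDX2 specify the intestine, and GATA4, GATA6 and HNF4A act in both. In the metaplasia that can precede gastric cancer, gastric cells take up intestinal features, so that gastric products such as pepsinogen C and claudin 18 and intestinal products such as villin and REG4 can be read side by side. HIF-1 itself is a dimer of the oxygen-regulated HIF-1α with a constant partner and binds short DNA motifs with the core ACGTG or GCGTG.

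The 250 bases upstream of the annotated start of 4 genes are shown, because these genes include the 3 with the largest differences and the intestinal factor CDX2. The sequences are from RefSeq (GRCh38.p14) and are written 5′ to 3′ on the strand of the gene. A window was found for 7 of the 10 genes. Capitals mark the HIF cores ACGTG and GCGTG, the GATA factor motif AGATAA and the CDX motif TTTATG, searched on both strands; no match overlapped another. PGC lies at chr6:41747398-41747647 (minus strand), REG4 at chr1:119811461-119811710 (minus), CDX2 at chr13:27969316-27969565 (minus), and the 2 starts of CLDN18 at chr3:137998566-137998815 and chr3:138009915-138010164 (plus).
PGC: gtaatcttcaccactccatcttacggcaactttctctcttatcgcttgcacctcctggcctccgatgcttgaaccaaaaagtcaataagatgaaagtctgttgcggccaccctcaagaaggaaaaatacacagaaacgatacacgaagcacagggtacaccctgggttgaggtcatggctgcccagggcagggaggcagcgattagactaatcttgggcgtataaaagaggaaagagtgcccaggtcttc
REG4: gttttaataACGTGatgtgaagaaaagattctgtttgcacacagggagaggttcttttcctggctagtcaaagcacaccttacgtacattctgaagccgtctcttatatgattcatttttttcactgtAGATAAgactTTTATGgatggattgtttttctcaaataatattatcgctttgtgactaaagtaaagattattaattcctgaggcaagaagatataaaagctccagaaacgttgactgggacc
CLDN18, first start: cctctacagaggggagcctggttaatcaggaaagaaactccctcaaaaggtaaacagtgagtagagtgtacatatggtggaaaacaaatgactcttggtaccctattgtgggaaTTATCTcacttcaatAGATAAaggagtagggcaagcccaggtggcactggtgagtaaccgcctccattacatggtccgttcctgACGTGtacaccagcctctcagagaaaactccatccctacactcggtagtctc
CLDN18, second start: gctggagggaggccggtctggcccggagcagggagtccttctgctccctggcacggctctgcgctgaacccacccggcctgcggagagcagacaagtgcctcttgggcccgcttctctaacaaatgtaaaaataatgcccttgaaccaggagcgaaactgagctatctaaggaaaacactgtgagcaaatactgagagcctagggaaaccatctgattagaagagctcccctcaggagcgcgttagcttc
CDX2: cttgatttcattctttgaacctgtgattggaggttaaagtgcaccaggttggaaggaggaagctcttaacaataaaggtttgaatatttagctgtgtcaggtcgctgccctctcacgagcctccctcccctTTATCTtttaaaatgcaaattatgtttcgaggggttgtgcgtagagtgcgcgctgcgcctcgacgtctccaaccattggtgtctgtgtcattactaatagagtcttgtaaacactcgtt
The window of REG4 held ACGTG 241 bases before the start, AGATAA at 122 and TTTATG at 112. The first start of CLDN18 had ACGTG at 52 and AGATAA at 136 and 121 bases, and CDX2 had AGATAA at 119. PGC and the second start of CLDN18 held none of the 4 motifs. Among 35116 windows of the same length, ACGTG was present in 18.5%, GCGTG in 32.2%, at least 1 of the 2 cores in 43.2%, AGATAA in 9.17% and TTTATG in 9.64%. These letters describe the sequence and were not tested for binding.

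HIF1A, the target of the hairpin, was measured first as a check of the labels. Its normalized log2 signal was 6.35, 5.33 and 5.95 in HIF- replicates 1, 2 and 3, against 9.02, 7.57 and 7.97 in the SCR replicates. All HIF- samples were below all SCR samples. Replicate 3 was on another chip version and was normalized apart. Here and below, levels and overlaps compared between replicates therefore also carry the chip version. The mean log2 difference, HIF- minus SCR here and throughout, was -2.31 (standard error 0.16, n = 3, adjusted p = 0.0044 by limma after Benjamini-Hochberg adjustment). Over 14 alternative settings the difference lay between -2.46 and -1.81, and the adjusted p was under 0.05 in 9 of them, missing it for example without replicate 1 (-2.13, adjusted p = 0.088) and with no replicate block (0.99996). Between 33.6% and 55.6% of probes were detected per array at a detection p under 0.01. The deposited median log2 signal was 5.34 on the HIF- array and 5.59 on the SCR array of replicate 1, and lay between 4.56 and 5.04 on the HIF- arrays and between 4.55 and 4.97 on the SCR arrays of replicates 2 and 3. Epithelial identity of the cells was checked with a marker list, of which 7 of the 10 genes with a probe, among them EPCAM, CDH1, KRT8, KRT18 and KRT19, were detected on all 9 arrays. KRT7 and CLDN3 of that list were detected on none. No fibroblast marker was detected on all arrays and 9 of 10 on none. Of the 9 immune markers with a probe, CSF1R, LYZ and CD68 were detected on all arrays and 4, among them PTPRC and CD3E, on none. MS4A1 and CD14 were each detected on 1 array, of HIF- cells.

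The 8 lineage genes that were bright enough to be tested were each detected on all 9 arrays. None changed at an adjusted p under 0.05 by limma in either direction, while 14 of all 12195 genes and unnamed probes did (0.115%, or 0.0738% higher and 0.041% lower). The rank rule of the study's methods, rebuilt here, calls a gene when its difference scaled by the local spread is in the top 10% in each replicate with one sign. It called none of the 8, against 0.877% of all genes (0.443% higher and 0.435% lower). At an unadjusted p under 0.05 there were 6 of 8, with REG4, CLDN18 and CDX2 higher and PGC, GATA4 and SOX2 lower in HIF- cells, against 7.54% of all genes (3.41% higher and 4.13% lower). That count was 2 without replicate 2, where 364 of all 12195 were higher and 312 lower. It was 3 without replicate 3, where 441 were higher and 425 lower. With all replicates these all-gene counts were 416 and 504. CLDN18, PGC and REG4 had the largest mean differences of the 8, and their replicates were uneven.

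**Figure D1:**
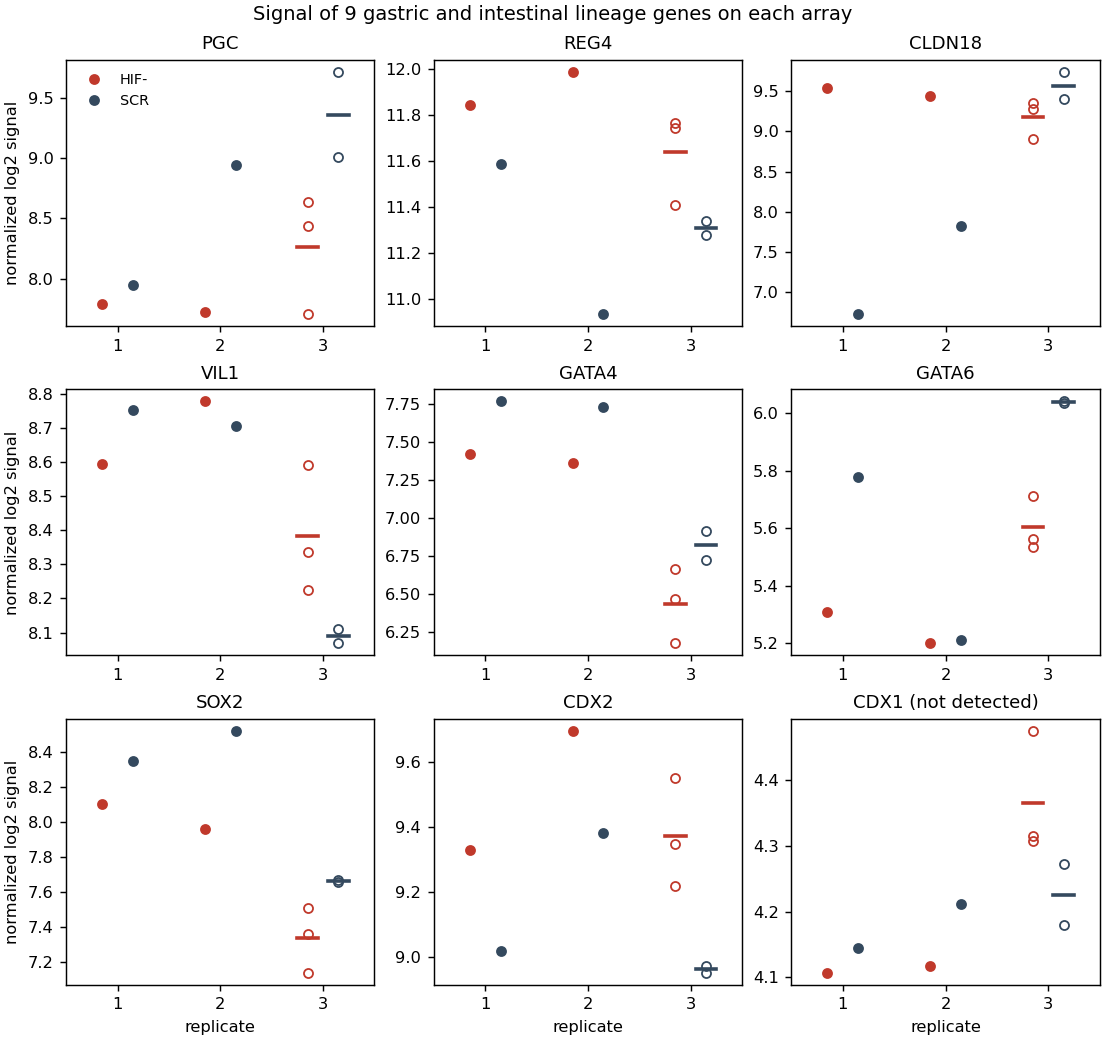
Normalized log2 signal (y axis) of the 9 genes with a probe in each replicate (x axis), with HIF- cells in red to the left of SCR cells in blue. Open circles are technical arrays of replicate 3 and bars their mean. PGC, GATA4, GATA6 and SOX2 were lower and REG4 and CDX2 higher in HIF- cells in all 3 replicates, while CLDN18 and VIL1 changed sign between replicates. The difference of GATA6 in replicate 2 was only -0.01.

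PGC encodes pepsinogen C, a precursor of a stomach protease that is made by chief and mucous neck cells. Its signal was 7.79, 7.72 and 8.26 in HIF- replicates 1, 2 and 3, against 7.95, 8.94 and 9.36 in SCR replicates 1, 2 and 3. HIF- cells were lower in each replicate, but the HIF- sample of replicate 3 was above the SCR sample of replicate 1, so the groups overlapped. The differences were -0.16, -1.22 and -1.10. The mean of -0.83 (standard error 0.21, 95% confidence interval -1.32 to -0.33, n = 3) is a 1.77-fold lower signal, with an unadjusted p of 0.0055 and an adjusted p of 0.359 by limma. The HIF- samples lay close together, and the SCR samples spread over more than 1 log2 unit with the lowest in replicate 1. On the technical arrays of replicate 3, the 3 HIF- arrays ranged from 7.71 to 8.64, and both SCR arrays lay above them, the higher at 9.71.

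CLDN18 encodes claudin 18, a tight junction protein with a stomach and a lung isoform. Its brightest probe had a signal of 9.54, 9.44 and 9.18 in HIF- replicates 1, 2 and 3, against 6.73, 7.83 and 9.57 in SCR replicates 1, 2 and 3. The HIF- samples were nearly level (SD 0.19), whereas the SCR samples spread widely (SD 1.43), with the SCR sample of replicate 3 the highest of all 6. Replicate and chip version cannot be told apart in the level of replicate 3. The differences of 2.81, 1.61 and -0.39 changed sign. The mean was 1.34 (standard error 0.50, 95% confidence interval 0.16 to 2.52, unadjusted p = 0.031, adjusted p = 0.591 by limma). The SD of the 3 differences was 1.61. The standard error and interval are narrower than this spread alone would give, because limma draws the variance toward that of all genes. With a background offset of 50, or without the filter on dim probes, the unadjusted p by limma was not under 0.05. Without replicate 3 the mean difference was 2.21 and the rank rule called the gene, and without replicate 1 it was 0.61. In replicate 3 the 3 HIF- arrays ranged from 8.91 to 9.35, all below the SCR arrays at 9.40 and 9.73. In the authors' processed values the 3 differences were 2.73, 1.69 and -0.38.

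The other 3 CLDN18 probes were dimmer. One was assigned by the platform annotation to a different transcript than the brightest probe and the remaining pair. It was detected on 2 of 5 HIF- and 3 of 4 SCR arrays, with differences of 0.79, 0.04 and -0.26. Of the remaining pair, one was detected on 3 of 5 HIF- and 1 of 4 SCR arrays and differed by 1.03, 1.48 and 0.14. The last was detected on 5 of 5 HIF- and 3 of 4 SCR arrays, with differences of 1.59, 1.23 and -0.40. Several of these differences rest on values that were not above background. In SCR replicate 2, the second and the last of these 3 probes had detection p-values of 0.443 and 0.741, and in replicate 3 the first was undetected on all 3 HIF- arrays (detection p 0.130 to 0.434) and the second on all but 1 of the 5 arrays. Only the last of the 3 was detected on every array of replicate 3, where its HIF- and SCR arrays overlapped. Probe sequences were not used here, so which of the transcripts each probe can bind was not checked. The signal of the brightest probe therefore cannot be read as that of the stomach isoform.

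**Figure D2:**
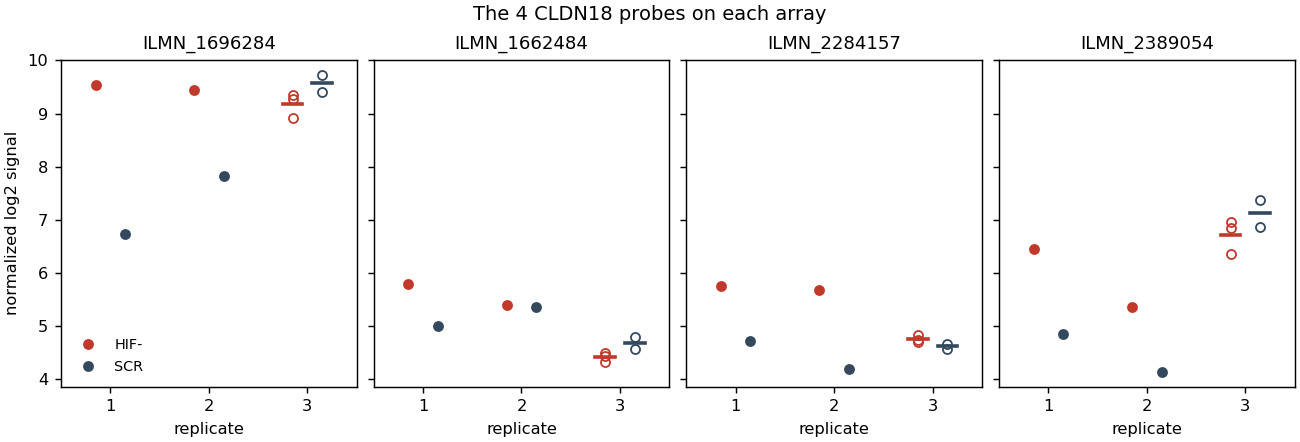
Normalized log2 signal (y axis) of each of the 4 CLDN18 probes in replicates 1 to 3 (x axis), with HIF- in red to the left of SCR in blue, open circles for technical arrays and bars for their mean. The brightest probe stayed between 8.91 and 9.54 on all HIF- arrays, while on SCR arrays it ran from 6.73 to 9.73.

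REG4 encodes a secreted lectin-like protein of intestinal endocrine and goblet cells that is found in gastric cancers. Its signal was 11.84, 11.99 and 11.64 in HIF- replicates 1, 2 and 3, against 11.59, 10.94 and 11.31 in the SCR replicates. Each HIF- sample was above every SCR sample, but only just: HIF- replicate 3 was at 11.64 and SCR replicate 1, on the other chip version, at 11.59. A single technical HIF- array of replicate 3, at 11.41, lay below that SCR sample. REG4 was the only one of the 8 genes without overlap between the groups, a pattern shown by 2.42% of all genes tested. The differences were 0.25, 1.05 and 0.33, with replicate 2 contributing the most. The mean of 0.54 (standard error 0.18, 95% confidence interval 0.13 to 0.96, n = 3) is a 1.46-fold higher signal, with an unadjusted p of 0.018 and an adjusted p of 0.515 by limma. Without replicate 2 the mean was 0.29. VIL1, which encodes the actin-bundling protein villin of the intestinal brush border, had a signal of 8.59, 8.78 and 8.38 in HIF- cells, against 8.75, 8.71 and 8.09 in SCR cells. The groups overlapped, and the differences of -0.16, 0.07 and 0.29 had no common sign (mean 0.07, 95% confidence interval -0.25 to 0.39, adjusted p = 0.883 by limma).

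Among the transcription factors, the mean differences lay between 0.31 and 0.38 in size. CDX2, which specifies intestinal epithelium, had a signal of 9.33, 9.69 and 9.37 in HIF- replicates 1, 2 and 3, against 9.02, 9.38 and 8.96 in SCR replicates. HIF- cells were higher within each replicate, and the SCR sample of replicate 2 lay above 2 of the HIF- samples. The differences were 0.31, 0.31 and 0.41 (mean 0.34, standard error 0.12, 95% confidence interval 0.06 to 0.62, unadjusted p = 0.023, adjusted p = 0.557 by limma), a 1.27-fold higher signal. Before normalization, the deposited signals of replicate 1 differed by -0.07, and the arrays of that replicate also differed in their median, as given above. CDX1, its close relative, was detected on none of the 9 arrays (lowest detection p 0.142) and was discarded as dim. Its signals of 4.11, 4.12 and 4.37 in HIF- cells and 4.14, 4.21 and 4.23 in SCR cells were not above background, so no fold is given.

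SOX2 moved the other way from CDX2. Its signal was 8.10, 7.96 and 7.34 in HIF- replicates 1, 2 and 3, against 8.34, 8.52 and 7.66 in SCR replicates. HIF- was lower within each replicate, although the groups overlapped because both samples of replicate 3 were low. The differences were -0.25, -0.56 and -0.33 (mean -0.38, standard error 0.13, 95% confidence interval -0.68 to -0.08, unadjusted p = 0.021, adjusted p = 0.543 by limma), a 1.30-fold lower signal. A further SOX2 probe, on the HumanHT-12 chip alone, gave 6.15, 6.89 and 6.88 on the 3 HIF- arrays of replicate 3, against 6.63 and 7.04 on the SCR arrays. These arrays overlapped, and the difference of their means was -0.20.

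The GATA factors were also lower in HIF- cells. GATA4 had a signal of 7.42, 7.36 and 6.43 in HIF- replicates 1, 2 and 3, against 7.76, 7.73 and 6.82 in SCR replicates. As with SOX2, replicate 3 was low in both groups, so the groups overlapped, but the differences of -0.34, -0.37 and -0.39 were nearly equal. Their mean of -0.37 (standard error 0.12, 95% confidence interval -0.64 to -0.09, unadjusted p = 0.016, adjusted p = 0.501 by limma) is a 1.29-fold lower signal. The deposited GATA4 signals, before normalization, differed less evenly, by -0.77, -0.37 and -0.27. In the authors' processed values the differences were -0.34, -0.34 and -0.35. GATA6, a paralogue of GATA4, had 5.31, 5.20 and 5.60 in HIF- cells, against 5.78, 5.21 and 6.04 in SCR cells. The groups overlapped, and replicate 2 differed by only -0.01, while replicates 1 and 3 differed by -0.47 and -0.43. The mean was -0.31 (standard error 0.14, 95% confidence interval -0.64 to 0.03, unadjusted p = 0.065, adjusted p = 0.670 by limma), and it was -0.18 when the background offset was 50. In replicate 2 both GATA6 signals lay close to the lowest detected signal of their array (5.02 for HIF- and 4.98 for SCR). The deposited GATA6 signals of that replicate differed by 0.003, so the common sign was absent before normalization.

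**Figure D3:**
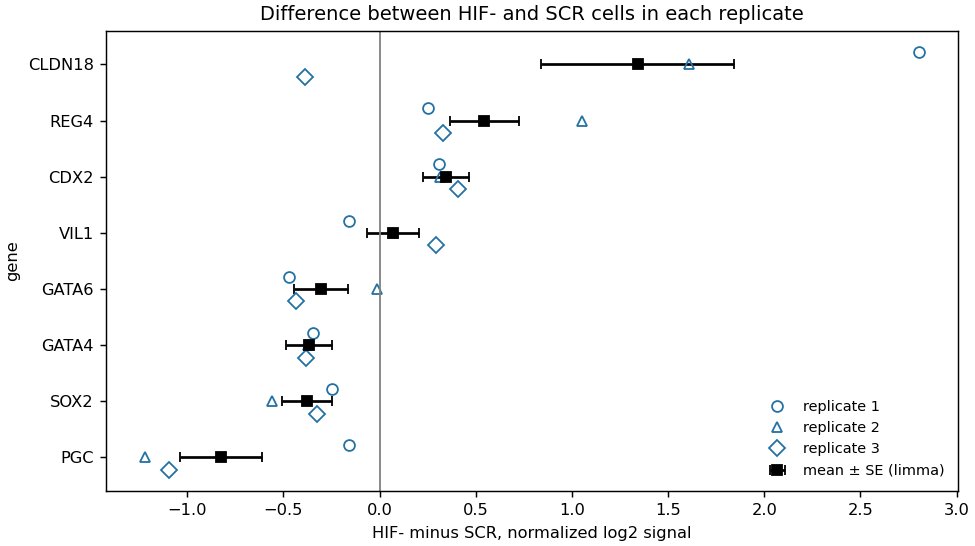
Difference in normalized log2 signal between HIF- and SCR cells (x axis, HIF- minus SCR) for the 8 genes tested (y axis). Open symbols are the 3 replicates and squares the mean with the standard error from limma. CDX2 and GATA4 had the most even replicates, while CLDN18 ran from -0.39 to 2.81.

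Of the 8 genes, 6 kept one sign in all 3 replicates, 2 of them higher (REG4 and CDX2) and 4 lower (PGC, GATA4, GATA6 and SOX2), against 31.9% of all genes (14.5% higher and 17.4% lower). GATA6 counted among them through a difference of only -0.01 in replicate 2. The mean difference was above 0.3 in absolute value for 7 of 8, against 12.9% of all genes. The median absolute difference was 0.37 for the 8 genes and 0.13 for all genes tested, and the signed medians were -0.12 and -0.01. In replicate 3, the HIF- and SCR arrays did not overlap for 8 of 8 genes, against 26.4% of all genes, but these arrays are technical and share their RNA source within a group. The shares and medians over all genes, here and above, are not matched for signal. The 8 genes were detected on every array, whereas all genes tested include some detected on none, such as MEP1A and DPP4. The 8 genes were also chosen with earlier results of these data known.

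Related genes were counted in 3 lists that held none of the 10 genes. Of the gastric epithelium products, 10 of 26 were tested and 12 were detected on no array, among them pepsinogens A (PGA3, PGA4, PGA5) and the proton pump subunit ATP4B. The rank rule called 1 higher and 1 lower (0.877% of all genes were called in either direction), and so did limma at an unadjusted p under 0.05 (7.54% of all genes), but none passed at an adjusted p under 0.05. CBLIF, the gastric intrinsic factor that carries vitamin B12, had a signal of 4.74, 4.63 and 4.76 in HIF- cells, against 5.69, 6.95 and 7.74 in SCR cells. It was detected on 2 of 5 HIF- and 4 of 4 SCR arrays, so that its difference of -2.08 (standard error 0.34, adjusted p = 0.102 by limma) rests on HIF- values close to background. ANXA10, an annexin of gastric epithelium, had 6.34, 7.02 and 7.02 in HIF- cells, against 5.56, 6.03 and 5.97 in SCR cells (difference 0.94, standard error 0.13, adjusted p = 0.078 by limma). Each CBLIF sample of HIF- cells was below, and each ANXA10 sample above, all SCR samples. TFF1, a secreted trefoil peptide of gastric surface cells that was singled out after its values were seen, differed by 3.56, 0.90 and -1.65 in replicates 1, 2 and 3, and so changed sign in replicate 3 as CLDN18 did.

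Of the intestinal epithelium products, 22 of 36 were tested, with a median difference of 0.18 against -0.01 for all genes. The rank rule called 3 higher and none lower, against 0.443% higher and 0.435% lower among all genes. Limma at an adjusted p under 0.05 called none, and at an unadjusted p under 0.05 there were 7 higher and 1 lower, against 3.41% and 4.13% of all genes. MUC13, a membrane mucin, had a signal of 7.78, 8.55 and 7.79 in HIF- cells, against 7.05, 7.73 and 6.45 in SCR cells (difference 0.96, standard error 0.15, adjusted p = 0.102 by limma). REG1A, a secreted relative of REG4, differed by 1.16, 0.42 and 1.25 in the 3 replicates (mean 0.95, adjusted p = 0.159 by limma). SPINK4, a protease inhibitor of goblet cells, differed by 1.44, 0.64 and 0.40 (mean 0.82, adjusted p = 0.332 by limma) and was detected on 3 of 5 HIF- and 2 of 4 SCR arrays. Its SCR signal of 4.45 in replicate 3 was below the lowest detected signal of those arrays (4.87 and 4.74), so the size of that difference is not exact. Of the 35 listed genes with a probe, 11 were detected on all 9 arrays, among them the brush border myosin MYO1A and the adhesion molecule CDH17, and 15 on none, among them the absorptive genes SI, LCT, FABP1 and FABP2 and the goblet cell mucin MUC2.

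Of the other endoderm and gut transcription factors, 17 of 30 were tested, with a median difference of 0.01. At an unadjusted p under 0.05 by limma there were 1 higher and 4 lower, against 3.41% and 4.13% of all genes, and none at an adjusted p under 0.05. The rank rule called 1, as lower, against 0.435% of all genes. This was ESRRG, an orphan nuclear receptor, with a signal of 9.09, 8.93 and 8.30 in HIF- cells, against 10.22, 9.73 and 9.96 in SCR cells. All its HIF- samples were below all SCR samples (difference -1.20, standard error 0.18, adjusted p = 0.084 by limma). The brightest factors, FOXA1, a pioneer factor of endoderm, and SOX9, a factor of intestinal crypts, differed by -0.26 and -0.10 (adjusted p = 0.671 and 0.849 by limma).

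**Figure D4:**
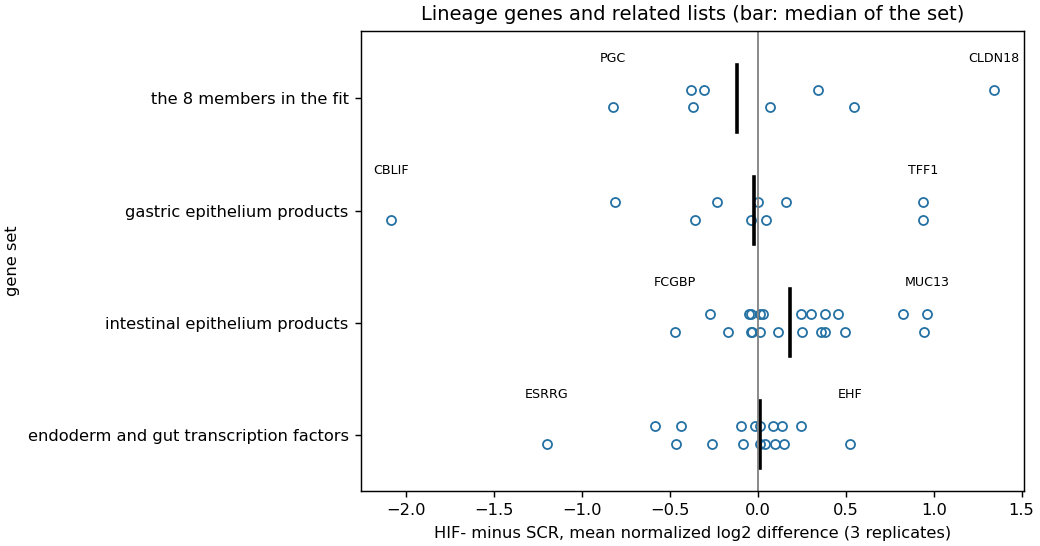
Mean difference between HIF- and SCR cells (x axis, HIF- minus SCR, normalized log2 signal, 3 replicates) of the 8 lineage genes and of the tested members of 3 lists (y axis). Each circle is a gene, bars are medians of -0.12, -0.02, 0.18 and 0.01 from top to bottom, and the lowest and highest gene of each set are named.

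Genes with the most similar pattern were sought by the distance between the 3 within-replicate differences over 3 replicates. For REG4 these were GALNT5 (distance 0.057), which had differences of 0.27, 1.04 and 0.39, and MAP3K9 (0.075). For PGC they were EEPD1 (0.42) and FMOD (0.44), with differences in replicate 1 of -0.03 and -0.23 and larger falls in the other two. GALNT5 and MAP3K9 were each detected on 6 of 9 arrays, EEPD1 on 5 and FMOD on 7. The differences of these matches thus rest partly on values not above background. CLDN18 had no close match. Its nearest genes, IGFL2 at a distance of 1.55 and TNNC1 at 1.61, were higher in HIF- cells in all replicates and did not share its change of sign.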

How the data were processed

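For every probe and array the authors deposited 3 values: a log2 signal, its detection p-value and a processed log2 value. According to the methods, RMA and beadarray were used. Processed columns of a replicate shared a distribution (sorted values differed by at most 0.017, 0.022 and 0.032 in replicates 1 to 3) and ranked probes like the deposited signals. No 2 arrays were copies (Spearman correlations up to 0.970 and 0.899). The design took the deposited signals as log2 values, so log2 was undone first. Background was corrected with limma's nec (offset 16), followed by quantile normalization within chip version, log2 and averaging of technical arrays; 24525 common probes were joined. Probes below the median in all 6 averaged samples were discarded (9839), and the brightest probe stood for a gene. Platform symbols were used (22317 probes with 1 symbol, 2208 with none, 16 left unnamed because their annotations differed).

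HIF- was compared with SCR in limma 3.58.1 (R 4.3.3; lmFit, eBayes, residual degrees of freedom 2) with a replicate block, and p was adjusted by Benjamini-Hochberg over 12195 genes and unnamed probes. The methods set sample against control within an experiment, and each BeadChip held the arrays of both groups. The pairing check, correlating the deviations of same-numbered samples from group means, gave 0.623, 0.805 and 0.850. Replicate 3 was on another chip version, which enters these deviations in both groups alike. The check therefore cannot decide which samples belong together within a chip version. The rank rule scaled differences by the median absolute deviation in a window of 501 genes of similar signal. The number of arrays limits the precision. The labels do not say whether replicates were separate cultures, while the methods call them independent experiments. The p-values concern these samples only. In eBayes the variance of each gene was drawn toward that of all genes, with prior degrees of freedom of 5.25. Standard errors, intervals and p-values by limma can therefore be smaller or larger than the 3 differences of a gene alone would give.

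Named were all members, HIF1A, per list up to 3 genes past limma and up to 3 called by the rank rule (or the 2 brightest where fewer than 2 were called), and the 2 genes nearest in pattern to the 3 members with the largest differences. The members, lists and rules were chosen with earlier results of these data known. Alternatives were other background corrections, normalizations, filters, probes, technical arrays, thresholds, tests and no block, and each replicate left out. The code was tested on simulated data.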

Additional observations from a re-analysis of the deposited data

How the results depend on the processing

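None of the 8 lineage genes passed limma at an adjusted p under 0.05 under any alternative run, and the lowest adjusted p was 0.063, for CLDN18. Differences kept their direction in 14 of 14 alternatives for each tested gene except VIL1, which ranged from -0.043 (without replicate 3) to 0.18 with a replicate left out. Alternatives that changed only the filter, the choice of probes, the block or the test returned the main difference of each gene, HIF1A included. Direction could not change in those alternatives. The rank rule called 0 to 3 of the 8 when a replicate was left out: CDX2, PGC and REG4 without replicate 1, CLDN18 without replicate 3 and none without replicate 2. Over all 12195 genes it then called 164 higher and 129 lower without replicate 1, 97 and 86 without replicate 2, and 117 and 99 without replicate 3. With all replicates it called 54 higher and 53 lower, so leaving out a replicate made the rule looser for all genes. At an unadjusted p under 0.05 there were 5 members without replicate 1, 2 without replicate 2 (GATA6 and PGC) and 3 without replicate 3 (CLDN18, PGC and REG4). Over all 12195 genes these settings gave 410, 364 and 441 higher and 367, 312 and 425 lower. The main run gave 416 higher and 504 lower. The member count was 4 with the first technical array only, where 396 of 12380 genes were higher and 425 lower. It was 0 with the methods' t-test, where only 46 of 12195 genes were higher and 70 lower. The median difference of the members was 0.19 with every probe on its own, where 3 further CLDN18 probes entered, and -0.14 to -0.02 with a replicate left out.

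With no replicate block (the pairing not used, the chip version as covariate), the differences were the same, no member passed (the adjusted p of HIF1A was 0.99996), and 1 gene was higher and 1 lower over the whole table, against 9 and 5 with the block. The split of all calls was 25 and 25 with scaling to a common median, 1 and 2 with an offset of 50, 5 and 4 with the first technical array, 0 and 0 without a filter and with the methods' t-test. Without replicates 1, 2 and 3 in turn it was 0 and 0, 6 and 4, and 1 and 3. The difference of GATA6 was -0.18 with an offset of 50, against -0.31. HIF1A was lower in HIF- cells in all 14 alternatives (-2.46 to -1.81) but missed the adjusted threshold with an offset of 50 (0.066), with no filter (0.462), with no block, with the methods' t-test (0.99995) and without replicate 1 (0.088). The cause was not tested. One CLDN18 probe was detected on 7 arrays in place of 4 at a detection p under 0.05.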

Other observations

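Genes of other cell types were measured on the same arrays. Of 10 hepatocyte genes, 7 were detected on no array, among them ALB. The only one detected on all arrays was APOA2, an apolipoprotein made by liver and gut, with a signal of 9.18, 11.22 and 9.70 in HIF- cells, against 7.46, 10.48 and 8.94 in SCR cells. It was higher in each replicate (differences 1.72, 0.73 and 0.77, mean 1.07, standard error 0.21, adjusted p = 0.161 by limma) and was called by the rank rule. TTR, the thyroxine carrier transthyretin, and FGB, a fibrinogen chain, were each detected on 2 of 5 HIF- and 1 of 4 SCR arrays. TTR differed by 0.41, with an unadjusted p of 0.029 by limma, and was singled out after its values were seen. Of 8 squamous genes with a probe, none was detected on all arrays. KRT13, a squamous keratin, differed by -0.34 (adjusted p = 0.577 by limma), and SPRR1A, a cornified envelope protein, by 0.10 (adjusted p = 0.806). Of the fibroblast collagens, COL1A1 was detected on 5 of 5 HIF- and 3 of 4 SCR arrays (difference 0.13, adjusted p = 0.868) and COL1A2 on none. CSF1R, a receptor of the macrophage lineage, differed by -0.43 (adjusted p = 0.614) and LYZ, lysozyme, which gastric glands also make, by -0.22 (adjusted p = 0.701). The keratins KRT8 and KRT19 of simple epithelia differed by 0.19 and -0.10 (adjusted p = 0.703 and 0.835 by limma).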
